A study of Homo sapiens with 6 samples.

Results

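BAF53B-alone regions are the stretches of open chromatin called as peaks in JMJD3/UTX-deficient neural progenitor cells (NPCs) that expressed BAF53B and in neither comparison group. They were chosen by measured values: a peak of the ATAC-seq list of the BAF53B cells was taken when it shared no base with any peak of the wild-type (WT) list or of the double knock-out (dKO) list. Of the 16948 BAF53B peaks, 5195 met this rule, which is 30.7% of the list, and the 3 lists together held 50267 peaks. The other BAF53B peaks were 5525 shared with dKO, 445 shared with WT and 5783 shared with both, and these classes serve below for comparison with 1166 peaks found in the WT list alone and 13728 in the dKO list alone. Because the lists themselves set the membership, the height of these peaks is given as a description, and comparisons are made on sequence and on position in the genome, which the rule did not use.

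All cells came from the human embryonic stem cell line H1 and were turned into NPCs by inhibiting TGFb and BMP signalling. WT NPCs had the unmodified genotype. dKO NPCs were JMJD3-/-/UTX-/Y, made by genome editing that removed the catalytic domain of each demethylase, and the last group was dKO NPCs transduced with a lentivirus expressing BAF53B. Each group had 2 replicates, and the submitters deposited 1 peak list per group made from both. The values below therefore have no replicate error, and every interval is a 95% interval for counting error alone. The sample names place WT and dKO cells at a stage called NPC2 and the BAF53B cells at a stage called NPC, and no empty vector sample is named, so BAF53B, viral transduction and any difference in stage cannot be told apart. The labels call the BAF53B cells neural progenitors, while the study's text describes its ATAC-seq of BAF53B-rescued cells in connection with differentiated cultures. Whether this list was made before or after differentiation is therefore uncertain, and the name NPC follows the labels.

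ATAC-seq uses the Tn5 transposase, which cuts and tags DNA where nucleosomes leave it accessible. The BAF complex is an ATP-driven remodeller that slides and evicts nucleosomes, and BAF53B, encoded by ACTL6B, is the actin-like subunit that replaces BAF53A when progenitors become post-mitotic neurons. JMJD3 (KDM6B) and UTX (KDM6A) remove the repressive mark H3K27me3. AP-1 is a family of dimers of JUN, FOS and related proteins that bind the word TGACTCA, mostly at enhancers, and BAF is known to work with AP-1 in opening enhancers in other cell types.

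The word TGACTCA or its reverse complement TGAGTCA was the 7-letter word that set the summits of the BAF53B-alone regions most apart from the sequence beside them. To show it in place, the 6 regions of largest pileup with the word within 25 bp of the summit are printed as 61 bases of hg38 centred on the summit, plus strand, with the AP-1 letters in capitals. The first lies 2250 bp upstream of the TSS of BCL9, a beta-catenin cofactor, and the others lie in introns of TCF7L2, a transcription factor of the WNT pathway, of ATP8A2, a lipid flippase, and of MAP2, a microtubule protein of dendrites, between genes 9070 bp upstream of PADI2, and in an intron 13366 bp upstream of SEC14L5.
BCL9 upstream, chr1:147539221-147539281: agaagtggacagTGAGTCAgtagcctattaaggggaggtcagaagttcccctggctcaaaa
TCF7L2 intron, chr10:113087446-113087506: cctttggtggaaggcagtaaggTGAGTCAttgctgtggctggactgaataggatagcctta
ATP8A2 intron, chr13:25633294-25633354: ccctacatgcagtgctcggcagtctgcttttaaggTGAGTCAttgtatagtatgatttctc
MAP2 intron, chr2:209496110-209496170: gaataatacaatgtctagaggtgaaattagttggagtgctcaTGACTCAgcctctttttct
PADI2 upstream, chr1:17128491-17128551: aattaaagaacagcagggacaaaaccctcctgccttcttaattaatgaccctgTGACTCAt
SEC14L5 upstream, chr16:4944934-4944994: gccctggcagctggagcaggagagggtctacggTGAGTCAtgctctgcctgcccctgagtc

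The pileups of these regions, in the order printed, were 51, 49, 47, 46, 46 and 46 fragments, and their folds over local background were 3.45, 4.37, 4.60, 5.67, 4.21 and 3.55. They stand at the upper end of the BAF53B-alone regions, most of which were weaker.

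A further set shows that other regions carry other factors' words. These were picked for a large pileup and an RFX word or a CTCF word within 25 bp of the summit, after their values were seen. Taller regions with an RFX word within 100 bp of the summit are named below. RFX proteins act in ciliated and neural cells, and CTCF anchors chromatin loops. The RFX region lies 1459 bp upstream of the TSS of GAST, the gastrin gene, and had 46 fragments. The CTCF region lies in an intron and had 48 fragments.
GAST upstream, RFX in capitals, chr17:41710842-41710902: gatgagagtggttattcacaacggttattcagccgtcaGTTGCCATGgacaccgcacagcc
Intronic region, CTCF in capitals, chr1:33367900-33367960: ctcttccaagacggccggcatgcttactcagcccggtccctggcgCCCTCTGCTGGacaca

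The last set covers NEUROD1 and NEUROG2, proneural factors that drive neuronal differentiation, and FZD9, a WNT receptor. The study named these genes as less accessible in dKO NPCs, and for each of them a peak near the TSS was called in BAF53B cells and in no other group. These peaks lay just above the threshold, at a −log10 q of 5.17 to 5.57 where 5 was required, so the missing calls do not measure closed chromatin in WT or dKO cells. The 121 bases around each summit are printed with any word of the 19 motifs examined in capitals.
NEUROD1, chr2:181680580-181680700: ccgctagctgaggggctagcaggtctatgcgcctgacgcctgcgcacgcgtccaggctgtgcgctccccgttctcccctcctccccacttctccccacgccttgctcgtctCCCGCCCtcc
NEUROG2, chr4:112516572-112516692: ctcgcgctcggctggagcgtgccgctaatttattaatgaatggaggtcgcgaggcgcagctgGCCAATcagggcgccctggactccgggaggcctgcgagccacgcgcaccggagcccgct
FZD9, chr7:73434325-73434445: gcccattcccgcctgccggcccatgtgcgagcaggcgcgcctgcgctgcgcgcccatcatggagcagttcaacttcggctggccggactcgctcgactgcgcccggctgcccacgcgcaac

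In these promoter sequences no AP-1 word was present. The NEUROD1 sequence held the GC box recognised by KLF and SP factors, the NEUROG2 sequence held a CCAAT box of NFY, and the FZD9 sequence held none of the words.

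BAF53B-alone regions were low peaks. Their summit pileup, the number of fragments stacked at the highest point, had a median of 30 and ran from 26 to 73. The median was 37 in peaks shared with dKO, 36 in peaks shared with WT and 52 in peaks shared with both. Under 30 fragments were found at 2146 of the regions (41.3%), and 40 or more at 477 (9.18%). Their median fold over local background was 3.47, with a range from 2.60 to 7.09, and their median −log10 q was 6.20, against a threshold of 5 in the deposited lists. A −log10 q of at least 10 was reached by 506 of them (9.74%). The regions had a median width of 387 bp and together covered 2.24 Mb, which is 20.8% of the bases in the BAF53B list.

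**Figure D1:**
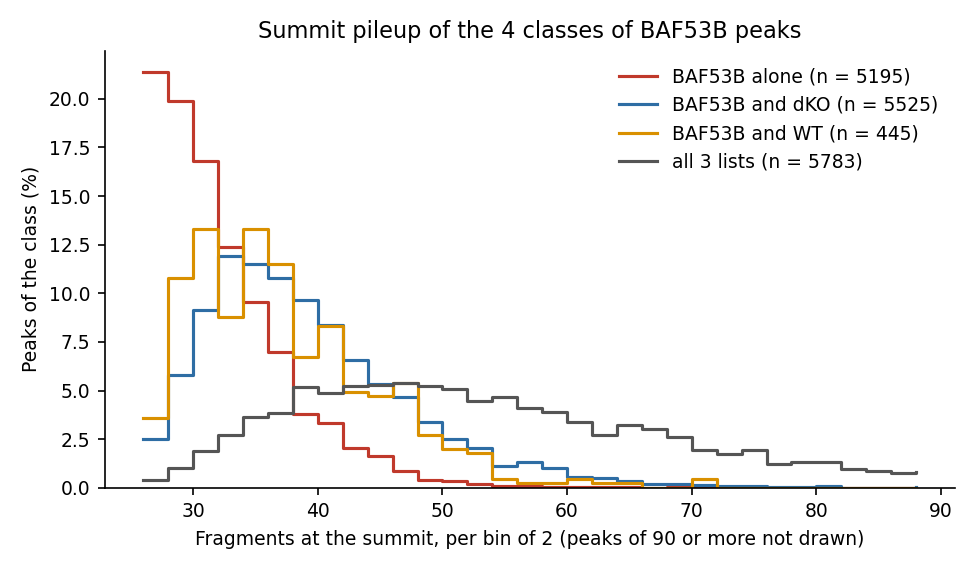
Number of fragments at the summit (x axis, bins of 2) against the percentage of peaks in each class of the BAF53B list (y axis), 1 line per class. BAF53B-alone regions crowd at the low end with a median of 30, and peaks found in all 3 lists spread around a median of 52.

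The low pileups bear on what the absence of a peak in another list means. The depth of a list, read from its lowest background, was 6.33 fragments in WT, 6.81 in dKO and 6.78 in the BAF53B cells. When pileup and background of each BAF53B-alone region were rescaled to the WT depth, 1946 regions (37.5%) had a −log10 p below the lowest of the WT list, and at the dKO depth 0 regions did. The same rescaling put 8.65% of the other BAF53B peaks below the WT threshold and 0 below the dKO threshold. The dKO result could not differ from 0. At near-equal depth, the lowest −log10 p was 7.71 in the dKO list and 7.96 in the BAF53B list. The 0 is therefore no information on absence from the dKO list. The median BAF53B-alone region stood at 1.01 times the pileup needed in the WT list and at 1.08 times that needed in the dKO list. A margin of at least 1.5 times over both was found at 53 regions, of which 48 lay over 3 kb from any TSS and 14 had the AP-1 word (26.4%, 16.4 to 39.6%). Presence in 1 list is thus not a measured difference in accessibility for most of these regions.

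The gap to peaks of the other lists is a description only. The rule admitted only regions without overlap, and no background gap was computed for comparison. The median gap to the nearest WT or dKO peak was 32867 bp, and 232 regions (4.47%) had such a peak within 1 kb. The nearest peak belonged to the dKO list at 4522 regions (87.0%), and that list held 76.3% of all WT and dKO peaks. At the border of the rule, the closest region inside it abutted another list's peak with a gap of 0 bp and had 32 fragments, and the next had gaps of 6, 11, 15 and 38 bp with 40, 34, 31 and 34 fragments. The peaks just outside overlapped by 3, 4, 17, 25 and 45 bp and had 36, 31, 37, 33 and 32 fragments, so pileups on each side of the border ran over the same range.

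BAF53B-alone regions lay mainly in introns and between genes. The summit was within 3 kb of a gene's TSS in 929 regions, or 17.9% (16.9 to 18.9%). Introns further from a TSS held 2562 regions (49.3%, 48.0 to 50.7%), stretches between genes held 1441 (27.7%, 26.5 to 29%) and exons held 263 (5.06%, 4.50 to 5.69%). The median distance to a TSS was 19235 bp, and 1178 regions (22.7%) were over 50 kb away.

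The position differed from that of peaks shared with dKO. Among those, 63.9% lay within 3 kb of a TSS, so that the BAF53B-alone regions differed by −46.0 percentage points (−47.6 to −44.4). Peaks shared with WT were placed much like the BAF53B-alone regions, with 21.1% near a TSS, and the interval of the difference, −7.40 to 0.45 percentage points, included 0. In the WT-alone and dKO-alone peaks the share was 14.2% and 31.6%. By height, the share near a TSS was 9.97% in BAF53B-alone regions under 30 fragments, 30.9% at 35 to 39, 27.6% at 40 to 49 (23.6 to 32%) and 23.9% at 50 and over (13.9 to 37.9%), so it was higher above 30 fragments but did not go on rising. In the same bands, peaks shared with dKO had 39.1%, 65.1%, 72.6% and 77.4%. The value also moved with the lists' lengths and thresholds: it was 34.9% when a −log10 q of at least 10 was asked of all 3 lists, and 43.4% when each list was limited to 7880 peaks.

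**Figure D2:**
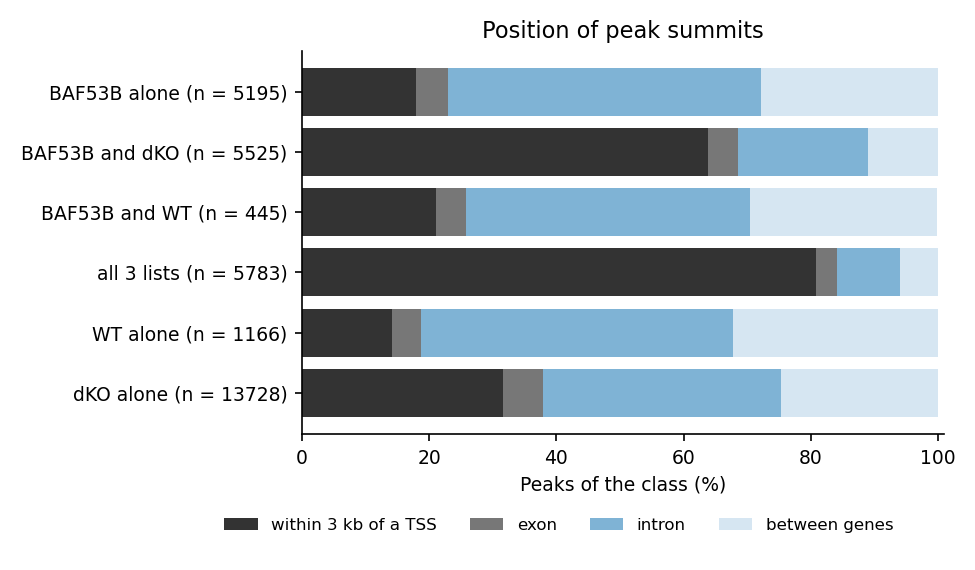
Share of peak summits (x axis, percent of the class) within 3 kb of a TSS, in exons, in introns and between genes, for 6 classes of peaks (bars). BAF53B-alone regions have 17.9% of summits near a TSS, against 63.9% in peaks shared with dKO and 80.9% in peaks of all 3 lists.

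The base composition also differed between the classes. BAF53B-alone regions had a median GC content of 48.3% and 2 CpG in the 201 bp around the summit, whereas peaks shared with dKO had 64.7% and 15. Within 3 kb of a TSS the BAF53B-alone regions had 56.2% GC and 7 CpG. The 4266 regions further away had 47.3% GC, while over 3 kb from a TSS other BAF53B peaks had 55.2%, dKO-alone peaks 54.2% and WT-alone peaks 46.8%. The difference in GC content was thus present at such positions too.

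The AP-1 word lay within 100 bp of the summit at 818 BAF53B-alone regions, or 15.7% (14.8 to 16.8%). Windows of the same length centred 1 kb to each side of the same summits held it in 2.99%, a difference of 12.8 percentage points (11.7 to 13.8). Of all protein-coding promoters, in windows of the same length around the TSS, 2.62% held it. The same letters read in reverse order, a word of equal composition, were found in 3.43% of summit windows and 2.94% of flanks. Among 8191 words of 7 letters, counted with their reverse complements, TGACTCA had the largest difference between summits and flanks in these regions, with related words such as ATGACTC among the next.

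Compared with other classes, the AP-1 share of BAF53B-alone regions was intermediate. It was 4.31% in peaks shared with dKO, 11.4 points lower (10.3 to 12.6), 2.75% in peaks of all 3 lists and 3.72% in dKO-alone peaks. WT-alone peaks had 9.95%, which was 5.80 points lower (3.71 to 7.68). At like height this difference was 4.43 points under 30 fragments (1.91 to 6.71), but at 30 to 34 and 35 to 39 fragments its intervals, −1.69 to 6.96 and −5.51 to 12 points, included 0. Peaks shared with WT had 25.6%, and here the BAF53B-alone share differed by −9.87 points (−14.2 to −5.90). The classes rich in AP-1 were thus the BAF53B-alone regions and both classes with WT and without dKO peaks.

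Near genes' starts the word was less common, at 9.69% of BAF53B-alone regions within 3 kb of a TSS (7.95 to 11.8%) against 17.1% in introns (15.7 to 18.6%) and 17.4% between genes (15.5 to 19.5%). Over 3 kb from any TSS, 17.1% of BAF53B-alone regions held it, against 7.57% of peaks shared with dKO, a difference of 9.49 points (7.83 to 11.1). Peaks shared with WT had 29.9% there, and the BAF53B-alone share differed from it by −12.8 points (−18.0 to −8.15). Against all other BAF53B peaks the difference was 7.13 points over 3 kb from a TSS and 11.4 points at all positions.

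**Figure D3:**
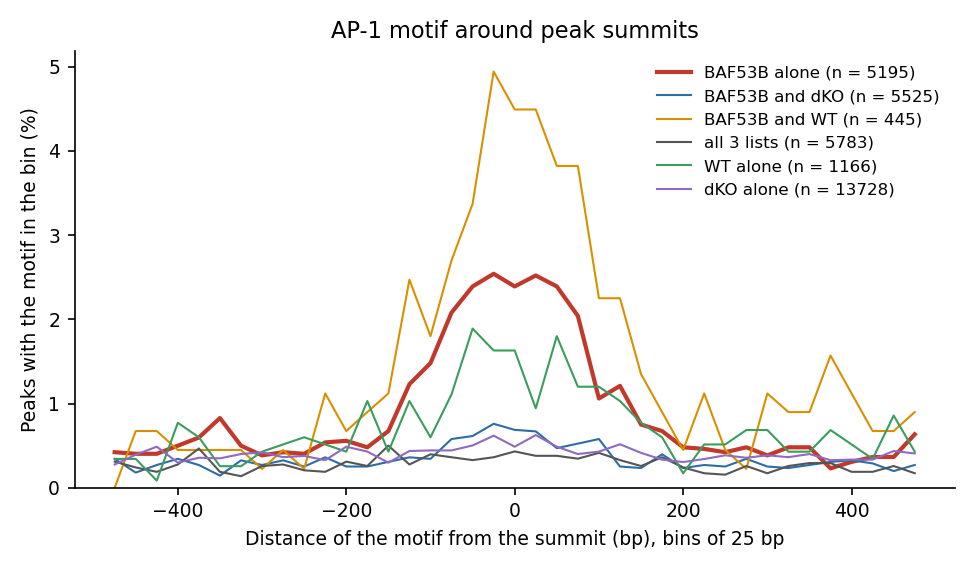
Percentage of peaks with an AP-1 word (y axis) in bins of 25 bp by distance from the summit (x axis), 1 line per class. In BAF53B-alone regions the share is 2.54% at −25 bp and 2.52% at 25 bp and falls to 0.48% at 200 bp, while peaks shared with WT reach higher values around the summit.

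The AP-1 word was most frequent near the summits. Per bin of 25 bp its share was 2.04 to 2.54% from −75 to 75 bp, without a sharp maximum. At −200 and 200 bp it was 0.558% and 0.481%. The median distance of the word from the summit was 43 bp in the 818 regions that held it, and 249 of them (30.4%) had it within 25 bp. These regions were chosen for a word within 100 bp, so the distances do not measure centring. More than 1 word was present in 93 of these regions (11.4%), with at most 3. An A before and a T after the word, the extended site that favours AP-1 dimers, was found at 13.9% of words in summit windows (11.8 to 16.3%) and at 5.41% in the flanks (3.41 to 8.50%).

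Taller regions held the AP-1 word more often. Over 3 kb from any TSS, its share was 13.1% in regions under 30 fragments (11.7 to 14.7%), 18.5% at 30 to 34, 21.5% at 35 to 39 and 26.6% at 40 to 49 (22.0 to 31.8%). Peaks shared with dKO stayed between 6.85% and 9.30% over the same bands. WT-alone peaks had 8.64%, 14.6% and 16.2% in the first 3 bands, the last in 37 peaks, so the rise was not limited to the BAF53B-alone regions. The 35 tallest regions away from a TSS, with 50 fragments or more, had 22.9%, with an interval of 12.1 to 39% that covers the values of the other bands. Among the 506 regions with a −log10 q of at least 10 the AP-1 share was 25.5%.

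**Figure D4:**
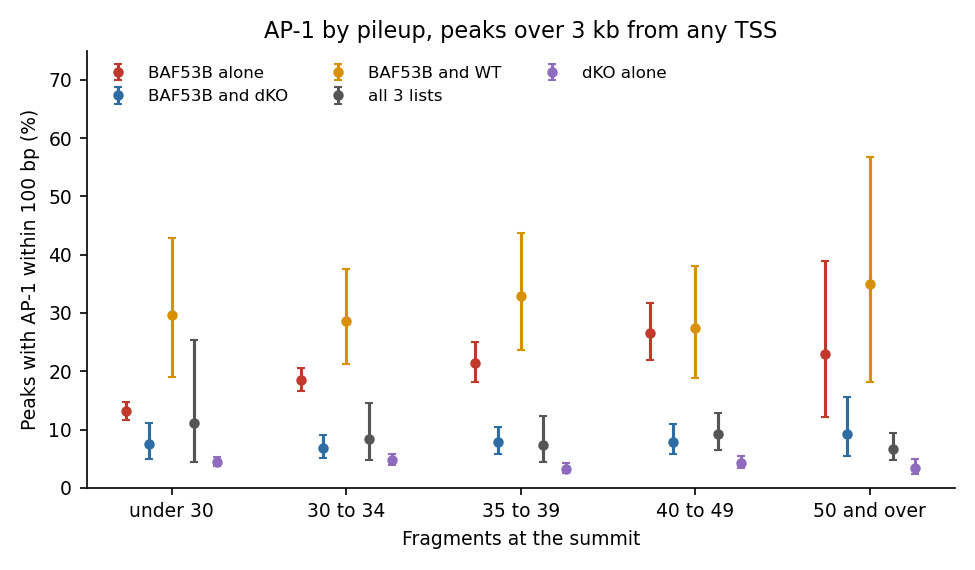
Percentage of peaks over 3 kb from any TSS with an AP-1 word within 100 bp of the summit (y axis) by number of fragments at the summit (x axis), 5 classes in colour, bars are 95% Wilson intervals. BAF53B-alone regions go from 13.1% under 30 fragments to 26.6% at 40 to 49, and dKO-alone peaks stay under 5%.

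CTCF gave the largest ratio of summit to flank among the 19 motifs. Its word was found at 287 BAF53B-alone regions (5.52%, 4.94 to 6.18%) and in 0.260% of flanks, a ratio of 21.3. The share was 4.33% in peaks shared with dKO, a difference of 1.20 points (0.380 to 2.03), and 5.94% in dKO-alone peaks, where the interval of the difference, −1.14 to 0.339 points, included 0. Over 3 kb from any TSS the direction was the opposite: 5.67% of BAF53B-alone regions held the word against 8.27% of peaks shared with dKO, a difference of −2.60 points (−4.05 to −1.25), and 6.89% of dKO-alone peaks, a difference of −1.22 points (−2.06 to −0.334). CTCF and AP-1 seldom fell in the same region: 1.71% of regions with the AP-1 word had a CTCF word, against 6.24% of regions without it, a difference of −4.53 points (−5.55 to −3.20).

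**Figure D5:**
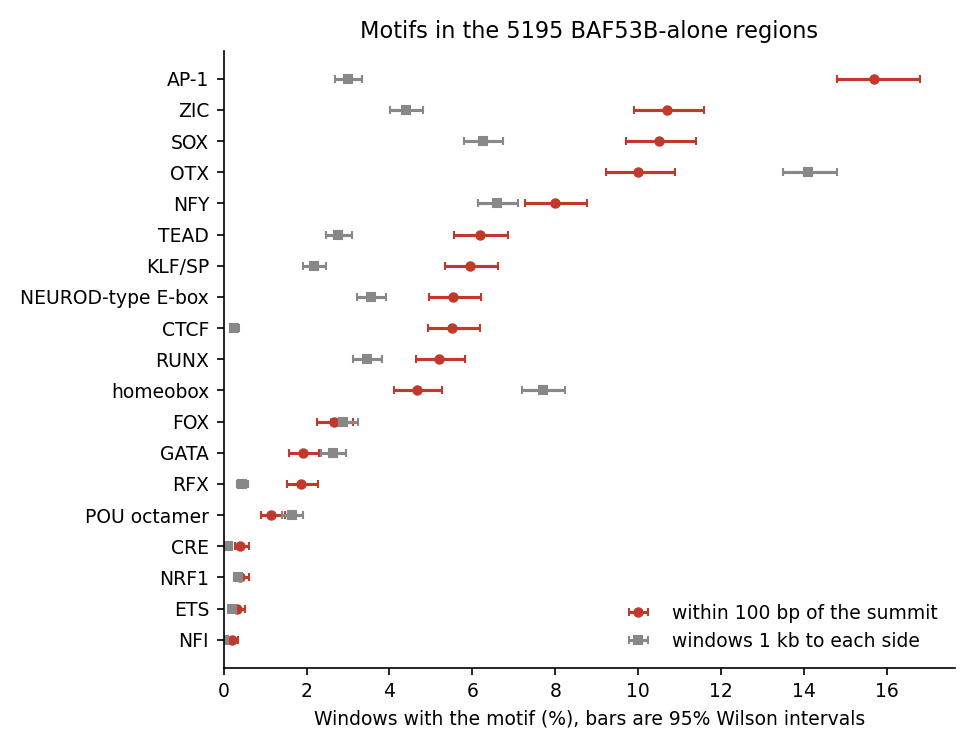
Percentage of windows with each of 19 motifs (x axis) within 100 bp of the summits of the 5195 BAF53B-alone regions (circles) and in windows 1 kb to each side (squares), bars are 95% Wilson intervals. AP-1 (15.7% against 2.99%) and CTCF (5.52% against 0.260%) lie furthest from their flanks in relative terms among motifs with a share over 5%, and OTX and homeobox words lie below theirs.

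For 12 of the 19 motifs, AP-1 and CTCF included, the interval of the difference between summits and flanks lay above 0, for 4 it lay below 0 and for 3 it included 0. ZIC words, bound by zinc finger factors of early neural tissue, were found at 10.7% of summits and 4.39% of flanks. SOX words, bound by SOX2 and other progenitor factors, were found at 10.5% and 6.25%. NEUROD-type E-boxes had 5.54% and 3.55%. TEAD words, bound by the partners of YAP, had 6.18% and 2.76%, and RFX words had 1.87% and 0.433%. The GC boxes of KLF and SP factors (5.95% and 2.18%), RUNX words (5.20% and 3.46%) and the CCAAT box of NFY (7.99% and 6.59%) were also above their flanks, as were the rare CRE and NFI words. Below their flanks were the homeobox word (4.66% and 7.70%), the OTX word (10.0% and 14.1%), the GATA word (1.91% and 2.63%) and the POU octamer (1.15% and 1.65%), of which the homeobox word holds no G or C.

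For several of these words the difference from peaks shared with dKO depended on position. At all positions TEAD was higher by 2.83 points (2.03 to 3.65), SOX by 4.25 points (3.20 to 5.30) and NEUROD-type E-boxes by 2.59 points (1.83 to 3.37). Over 3 kb from any TSS the differences were 0.499 points (−0.865 to 1.77), 0.640 points (−1.06 to 2.26) and 1.12 points (−0.0951 to 2.25), and each interval included 0. For RFX the difference was −0.250 points at all positions (−0.783 to 0.283) and −1.59 points over 3 kb from a TSS (−2.56 to −0.733), where 1.92% of BAF53B-alone regions and 3.51% of peaks shared with dKO held the word. ZIC words were also less frequent there than in peaks shared with dKO, with 11.0% against 13.6%, a difference of −2.55 points (−4.37 to −0.815). Other words stayed more frequent at such positions. OTX words had 10.6% against 6.37%, a difference of 4.27 points (2.81 to 5.65). The difference was 1.71 points for RUNX (0.609 to 2.73) and 1.02 points for GATA (0.381 to 1.58). OTX and GATA words nevertheless lay below their own flanks, as given above. GC boxes were present at 5.95% of BAF53B-alone regions and 34.3% of peaks shared with dKO, and over 3 kb from a TSS at 3.12% and 16.8%. At least 1 of the AP-1, CTCF, TEAD, SOX and RFX words was present at 1822 regions (35.1%), and 3373 (64.9%) had none.

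The tallest BAF53B-alone region lay in an intron of KAT6A, a histone acetyltransferase gene, with 73 fragments and a fold of 7.09 at chr8:42005338-42006128. It was followed by a region between genes, 106422 bp upstream of SDK1, a synaptic adhesion gene, with 68 fragments and an RFX word (chr7:3194514-3195297). An intron of NOVA2, which encodes a neuronal splicing factor, held a region of 65 fragments, also with an RFX word (chr19:45954031-45954853). These regions stood well above the median of 30.

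Of the next 7, both with an AP-1 word lay outside their nearest protein-coding gene. The region 33056 bp upstream of MEDAG had 62 fragments (chr13:30872931-30873379), and the region 30978 bp upstream of IRF2BPL had 58 (chr14:77059285-77059906). The only one at a promoter was that of GDPD5, a gene that promotes motor neuron differentiation, with 61 fragments, 96 bp upstream of the TSS (chr11:75525807-75526166). The remaining ones lay in an intron of SND1, with LRRC4, a synaptic adhesion gene, as the nearest TSS (58 fragments), between genes upstream of MYO16 (57), in an intron of TRAF6, a ubiquitin ligase of inflammatory signalling (57), and in an intron of GRIN2B, an NMDA receptor subunit (57). Thus 9 of the 10 tallest regions were away from promoters.

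At the promoters of protein-coding genes, 514 BAF53B-alone regions had a summit within 3 kb of a TSS, at 567 of 20033 genes (2.83%). Of these genes, 73 also had a WT promoter peak and 200 a dKO promoter peak, and 361 genes, 1.80% of all, had neither. Among the latter, the tallest regions after GDPD5 were at PCDH17, a protocadherin of axons and synapses, with 55 fragments, TMEM109 with 52, ICAM5, an adhesion molecule of telencephalic neurons, with 51, and LRP8, a reelin receptor, with 48.

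Promoter regions were found at 25 of the 250 genes in the 13 gene lists examined, in 26 regions. The share over all protein-coding genes, 2.83%, is the background for the shares by list below. Their pileups ran from 26 to 45 with a median of 34, their −log10 q from 5.02 to 9.66, and 15 of the 26 had a −log10 q under 6. They were therefore close to the threshold, and 0 of them reached a −log10 q of 10.

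Among proneural and neuronal fate factors, 5 of 21 genes (23.8%, beside 2.83% of all genes) had a BAF53B-alone promoter region. At all of these the WT and dKO lists had no promoter peak. The rule favours this, and it held for 63.7% of all genes with such a region. The 5 genes were NEUROG2 (chr4:112516498-112516763, 32 fragments, fold 3.12, 452 bp upstream of the TSS), NEUROD1 (chr2:181680352-181680820, 33 fragments, fold 3.03), OLIG2 (39 fragments, fold 3.49), OLIG1 (33 fragments, fold 2.95) and POU4F1 (30 fragments, fold 3.10). OLIG1 and OLIG2 specify oligodendrocytes and motor neurons, and POU4F1 marks sensory neurons. The NEUROD1 summit lay 187 bp inside that gene and 25 bp from the annotated TSS of CERKL, so it cannot be assigned to either gene. Counting shared peaks as well, 9 of the 21 promoters had a peak in the BAF53B list, 8 in the dKO list and 4 in the WT list. Over all protein-coding genes the shares with a promoter peak were 44.7% in the BAF53B list, 56.0% in the dKO list and 28.1% in the WT list, so the 9 of 21 in BAF53B cells were not above the share of all genes.

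Genes of the neuronal cytoskeleton and RNA-binding proteins had 4 of 20. INA, the gene of the neurofilament protein alpha-internexin, with 35 fragments, and ELAVL3, a neuronal RNA-binding protein, with 35, had no promoter peak elsewhere. NEFL (34 fragments) and NCAM1 (35 fragments) had a further promoter peak shared with another list. Of 30 synapse and ion channel genes, 1 (3.33%) had such a region, NRXN2, a presynaptic adhesion gene, with 45 fragments 66 bp upstream of the TSS.

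Progenitor and astrocyte genes with such a region were few in number, but their shares were above the 2.83% of all genes. The astrocyte share was the highest of the 13 lists, above the 23.8% of the proneural list. CDH2 (N-cadherin, 42 fragments) and DACH1 (39 and 33 fragments), 2 of 20 progenitor and radial glia genes, had dKO promoter peaks as well. Of 12 astrocyte genes, ALDH1L1 (29 fragments), NFIB (26) and GJA1 (40) had a BAF53B-alone promoter region, and GJA1 also had a peak shared with dKO. No gene of 20 in the Notch pathway had one, and 9 of them had a shared promoter peak in BAF53B cells.

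In other lists, 1 of 26 extracellular matrix genes (3.85%) had a BAF53B-alone promoter region (COL6A1, 34 fragments, with an AP-1 word). So had 2 of 15 neural crest and mesenchyme genes (13.3%), PRRX1 with 33 fragments and ZEB1 with 39. The counts were 1 of 10 pluripotency genes (10.0%, LIN28A, 39 fragments, with an AP-1 word) and 1 of 19 AP-1 factor genes (5.26%, FOSL2, 44). Of 26 BAF complex genes, 3 (11.5%) had one: SMARCD3, which encodes the subunit BAF60C, with 31 fragments, ARID1B with 38 and BRD7 with 32. At these BAF genes the other lists had no promoter peak, as at 63.7% of all genes with such a region.

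Of the 23 genes the study named as less accessible in dKO NPCs, 4 (17.4%) had a BAF53B-alone promoter region, namely CDH2, NEUROG2, NEUROD1 and FZD9 (chr7:73434256-73434482, 33 fragments, fold 2.95, 607 bp inside the gene). The study chose that list on these same samples, so it is not independent evidence. With shared peaks counted, 14 of the 23 promoters had a peak in the BAF53B list, 14 in the dKO list and 3 in the WT list. Promoter peaks at the named genes were thus as many in the dKO list as in the BAF53B list. The −log10 q values at NEUROG2, NEUROD1 and FZD9 were 5.57, 5.44 and 5.17. Of the genes altered in the experiment, ACTL6B had a single peak in the BAF53B list, at its own promoter (30 fragments) and present in all 3 lists, and its exons held no BAF53B-alone region. At KDM6A and KDM6B the BAF53B promoter peaks were shared with other lists too.

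Cell type markers gave a mixed picture of the cells. In the BAF53B list, 6 of 12 progenitor markers had a promoter peak (SOX1, VIM, FABP7, PTPRZ1, HES1 and CDH2), against 8 in dKO and 2 in WT, so the label of these cells as NPCs rests on part of the list, and SOX2, SOX3, PAX6, NES, HES5 and MSI1 had none. A promoter peak was also found at MAP2 and ELAVL3 among 6 neuronal markers, at ALDH1L1 among 4 astrocyte markers, at PRRX1 and COL1A1 among 6 markers of neural crest and mesenchyme, and at LIN28A among 4 pluripotency markers. The dKO list had as many in each of these last groups, with 2, 1, 2 and 1, and the WT list had 1 neuronal marker and 0 of the others, beside the shares over all genes given above. The counts in these groups were thus equal in BAF53B and dKO cells. In each of these groups 1 marker had a BAF53B-alone region. Fewer cells with an open region and less open chromatin per cell cannot be told apart in such bulk samples, and the part of cell mixture in these regions was not tested.

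Inside gene bodies, 2641 BAF53B-alone regions (50.8%) lay in protein-coding genes, at 2154 of 20033 genes (10.8%). These genes were long, with a median length of 129 kb against 27.5 kb for all, and the average density was 2.03 regions per Mb of gene body. The largest numbers in a gene and 50 kb around it were found at DLG2, a postsynaptic scaffold gene of 2173 kb, with 8 regions, and at LSAMP, a neuronal adhesion gene of 1337 kb, with 7. DPYD, GPC6, LHFPL6, MSI2, PDE4D and SLC22A23 followed with 6 each. Per length of gene body the order was different, from 3.68 per Mb in DLG2 to 26.6 per Mb in SLC22A23, an organic ion transporter family gene of 188 kb, while MSI2, an RNA-binding regulator of stem cells, had 11.7 per Mb. The 8 genes' regions had 26 to 46 fragments, and DLG2 and LSAMP thus stand out by length more than by density.

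Some listed genes held several regions for their length, chosen here after their values were seen. CDH2 had 5 in 245 kb, or 20.4 per Mb, with 39, 30, 34, 27 and 42 fragments, and none of these had an AP-1 word. MAP2 had 4 in 310 kb, with 46, 36, 29 and 33 fragments, of which those with 46 and 29 had one. The tallest is the MAP2 sequence printed above and also held TEAD and GATA words. BACH2, a repressor related to AP-1 factors, had 5 in 370 kb, with 32, 32, 26, 27 and 44 fragments, and the last, 12349 bp inside the gene, had an AP-1 word.

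By list, the number of BAF53B-alone regions per Mb of gene body was 2.57 in proneural and neuronal fate factors, 2.78 in neuronal cytoskeleton and RNA-binding genes, 2.33 in synapse and ion channel genes and 2.28 in extracellular matrix genes, near the 2.03 of all genes. It was 7.43 in progenitor and radial glia genes, of whose 11 regions CDH2 held 5, 6.56 in AP-1 factor genes, of whose 7 BACH2 held 5, 5.38 in astrocyte genes (8 regions), 5.00 in integrin, actin and YAP/TEAD genes (11), 4.42 in BAF complex genes (10) and 3.70 in neural crest and mesenchyme genes (3). Notch pathway genes had 0.981 per Mb (1 region), and 0 regions lay in pluripotency genes. These counts are small.

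Across chromosomes, the share of BAF53B peaks that were BAF53B-alone ran from 9.85% on chromosome 19 (8.14 to 11.9%) to 45.8% on chromosome 18 (40.3 to 51.4%). Per Mb of chromosome the autosomes were more alike, from 1.37 regions on chromosome 16 to 2.09 on chromosome 3. Chromosome X had 0.211 per Mb and a share of 17.8%. Most regions stood apart from each other: 4724 (90.9%) had no other within 20 kb, and 219 pairs and 10 groups of 3 or more made up the rest. The largest group, of 5 regions with at most 34 fragments, lay at chr21:10344324-10378209, 163594 bp from TPTE. Groups of 3 lay inside CDH2, SLC22A23 and MSI2.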

How the data were processed

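ATAC-seq was analysed in 6 samples: 2 replicates each of WT NPCs, of dKO NPCs and of BAF53B-expressing dKO NPCs. Per the study's methods and the submitters' processing notes, the authors used cutadapt 1.13 to trim adapters and Bowtie2 2.2.5 to map reads on hg38, removed duplicates with SAMtools 1.3.1 and Picard 1.90 and called peaks with MACS2, whose version and options are not given in the sources used here. Whether Tn5 cut sites were shifted is not given either. The labels name 1 list for both replicates of a group. Each deposited list gives a peak's interval and summit, a fold (the ratio of summit pileup to local background, 1 added to each), the −log10 p-value, the −log10 q-value (at least 5 throughout) and a score that MACS2 derives from the significance. The authors' differential calls were not used.

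Pileup and background were solved from the fold and the −log10 p-value and were recovered for 100% of peaks (tolerance 0.001). The lowest background of a list stood for its depth. Overlap meant at least 1 shared bp (checked with bedtools 2.31.1). Summits were placed by GENCODE version 44 in the order TSS within 3 kb, exon, intron, between genes, using the start of each annotated gene, and 20033 protein-coding genes on 24 chromosomes were counted. Sequence was read from hg38 with pysam 0.24.0, and motifs were matched on both strands within 100 bp of the summit and in 201 bp windows centred 1 kb to each side. The AP-1 word was TGACTCA and the CRE word TGACGTCA. TEAD factors were searched as GGAATGT and SOX factors as CCATTGT with a variant, CCTTTGT. RFX factors had the words GTTGCCATG, GTTGCTATG and GTTACCATG. For NRF1 the word was GCATGCGC, for ETS factors CCGGAAGT and for the POU octamer ATGCAAAT. The NEUROD-type E-box was CAGATGG. Homeobox factors were searched as TAATTA, OTX factors as GGATTA, the GATA family as AGATAAG and FOX factors as TGTTTAC. The GC box of KLF and SP factors was GGGCGGG, the CCAAT box of NFY was GCCAAT, the ZIC word was CCTGCTG and the RUNX word was TGTGGTT. Both CTCF and NFI were searched by their consensus. The ZIC and CTCF words can overlap in sequence. A further motif and the promoter counts of a gene list are not reported here. Shares have Wilson and differences of shares Newcombe 95% intervals. These cover counting error only and treat regions as independent. The scripts ran in Python 3.11.15 with scipy 1.17.1, numpy 2.4.6, pandas 2.3.3 and matplotlib 3.10.9, and the steps were tested on simulated data.

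The regions, gene lists and motifs were chosen with earlier results of these data known. Genes named are the nearest to the 10 tallest regions, those with the most regions (ties kept), listed genes with a promoter region, the genes altered in the experiment and 3 of the genes the study named. Others are said in the text to have been chosen after their values were seen, which also holds for the promoters named after GDPD5. Some items are not reported here. Alternatives were other thresholds, overlap rules, list lengths, windows and chromosome sets.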

Additional observations from a re-analysis of the deposited data

How the results depend on the processing

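Of 59 values of 8 results recomputed under 10 alternatives, 23 stayed within the interval of the reported value or, for counts, within 1.5 times of it, 36 moved and 0 changed sign. The cause of these moves was not tested. With a −log10 q of at least 10 in all 3 lists there were 1236 regions with a median of 43 fragments, 34.9% near a TSS, 37.5% in introns, 22.2% between genes, an AP-1 share of 17.5%, an AP-1 difference from other BAF53B peaks of 15.0 points and 358 promoter genes. The same threshold in the BAF53B list alone gave 506 regions, 41 fragments, 16.0%, 51.8%, 26.5%, 25.5%, 22.0 points and 53 genes. With each list limited to 7880 peaks the values were 1757 regions, 41 fragments, 43.4%, 32.2%, 18.7%, 12.9%, 9.47 points and 705 genes. The share near a TSS was 16.0% without regions within 1 kb of another list's peak and 19.0% when the summit alone had to lie outside. A promoter window of 1 kb gave 11.0% near a TSS, 52.6% in introns, 30% between genes and 375 genes, and starts of protein-coding genes alone gave 9.89%, 52.7% and 30.3%. A motif window of 50 bp gave an AP-1 share of 8.78% and a difference of 6.33 points, and regions over 3 kb from a TSS gave 17.1% and 7.13 points. On autosomes alone, all 8 results stayed in these bounds. An alternative chosen after seeing the data took the differences of further motifs from peaks shared with dKO over 3 kb from any TSS alone: CTCF reversed from 1.20 to −2.60 points, and TEAD, SOX, RFX and NEUROD-type E-boxes moved to 0.499, 0.640, −1.59 and 1.12 points. No paired analysis was possible because the deposited lists combine both replicates without replicate numbers, and leaving out a replicate could not be done for the same reason.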
